A study of Mus musculus with 20 samples.

Results

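The comparison described here is thoracic radiation in C57BL/6 mice fed flaxseed. It rests on 10 of the 20 mice of the study, chosen by their treatment labels. The 5 flaxseed-fed irradiated mice ate a diet with 10% flaxseed for 21 days, were then given 13.5 Gy, and were killed 48 hours later. The 5 flaxseed-fed unirradiated mice ate the same diet and received no radiation. Both groups therefore carry the diet. The other 10 mice are 5 irradiated without flaxseed and 5 untreated. They enter the processing of the arrays, the mean brightness of each clone and the common estimate of spread. Their response is also set beside that of flaxseed-fed mice and tested against it. The sources used here do not give sex, age, the diet of the mice without flaxseed or any sham treatment.

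Lung RNA of each mouse was labelled with radioactive phosphorus and hybridised to its own MA07 membrane, which carries 9600 spotted cDNA clones. All 9600 clones were analysed. Clones carry a running number as their only name in the files, and 0 of the 9600 IDs matched a gene in the mouse RefSeq table used here. Pathways, cell types and the labelled tissue could therefore not be examined through named genes, and clones are given by ID only.

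Ionising radiation breaks DNA, which activates the p53 pathway and halts the cell cycle, and it kills sensitive cells such as lymphocytes and dividing endothelial cells. In the lung these early events precede the inflammation and fibrosis known as radiation pneumonopathy. Flaxseed is rich in lignans and in alpha-linolenic acid, an omega-3 fatty acid, and has been studied as a dietary agent with antioxidant properties. In RNA from whole lung, fewer cells of a type and less RNA per cell cannot be told apart.

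Median spot signals lay between 150 and 227 intensity units on the flaxseed-fed irradiated arrays and between 104 and 183 units on the flaxseed-fed unirradiated arrays. The log2 median signal averaged 7.49 ± 0.28 in irradiated and 7.14 ± 0.38 in unirradiated mice (SD, n = 5 each; two-sided exact permutation p = 0.151, 0.452 after adjustment over 3 array measures, where 0.00794 is the smallest p the design allows). Background and the share of spots over 2 times their background gave exact permutation p-values of 0.540 and 0.651 for the same groups of n = 5 (0.651 after adjustment for each). With the median signal of each array as a covariate 123 clones were called, against the 209 described next. Arrays of the same group correlated with a mean r between 0.949 and 0.962 in irradiated and between 0.925 and 0.945 in unirradiated mice, and the pairs across the groups had r between 0.913 and 0.949. Irradiated mice 1 and 5 were the most alike pair, with r = 0.974, and unirradiated mouse 4 was the least like its group. Median backgrounds were 36.4 and 36.6 units in irradiated mice 1 and 5, against 19.4 to 21.5 units in the other irradiated mice. They were 28.6 to 30.4 units in unirradiated mice 2, 3 and 5, against 14.3 and 15.0 units in unirradiated mice 1 and 4. The 8 highest spots of the whole series shared 1 value, 101691 units. Of these, 0 were on flaxseed-fed irradiated arrays and 7 on 3 flaxseed-fed unirradiated arrays, and the 3 clones they belong to were not called.

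Below, a level is the log2 of a spot's background-corrected intensity after quantile normalisation, and a clone was called at a Benjamini-Hochberg adjusted p under 0.05 in limma over all clones. Radiation changed 209 clones in the lungs of flaxseed-fed mice, 2.18% of all 9600 tested. Relative to flaxseed alone, 107 clones rose (1.11%) and 102 fell (1.06%). Called clones that fell did so by a median of 2.25-fold, and 72 of the 102 (0.75% of all clones) fell by 2-fold or more, 17 of them (0.177% of all clones) by 4-fold or more. Called clones that rose did so by a median of 1.93-fold, and 42 of the 107 (0.438% of all clones) rose by 2-fold or more, while 0 reached 4-fold. The log2 fold changes of the called clones ran from -3.06 to -0.62 among falls and from 0.60 to 1.42 among rises. Over all clones, called or not, the log2 fold change had a median of -0.0042, and 59 clones were higher and 125 lower by 2-fold or more. An unadjusted limma p under 0.05 was reached by 1505 clones (15.7% of all clones), 834 higher and 671 lower with radiation. The larger number of falls by 2-fold or more depended on the scaling of the arrays. With median scaling the counts past 2-fold were 62 falls and 188 rises. The authors' processed table, in which arrays are also scaled by their median, gave 51 falls and 147 rises.

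**Figure D1:**
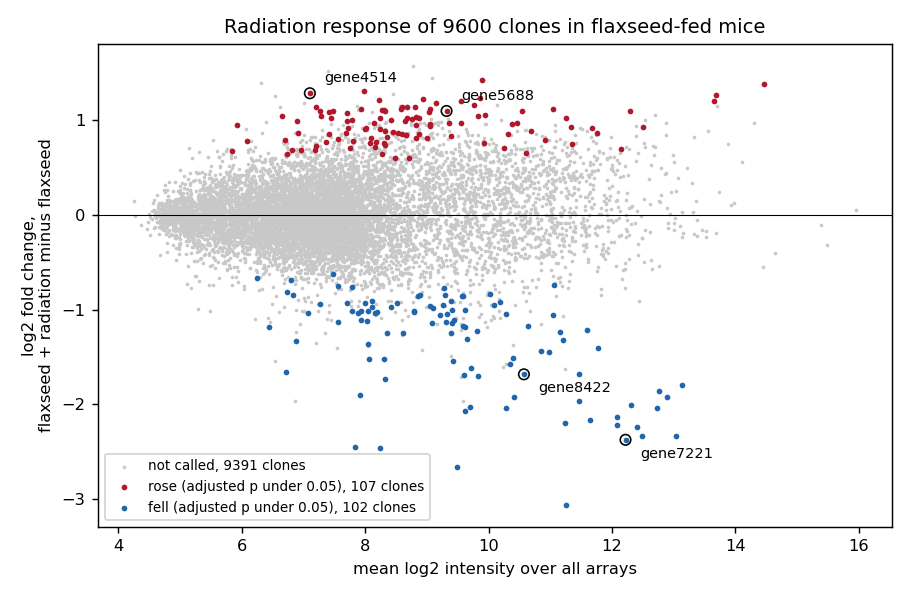
Log2 fold change of each clone in flaxseed-fed irradiated over flaxseed-fed unirradiated mice (vertical axis) against its mean log2 intensity over all arrays (horizontal axis). Each point is 1 of 9600 clones, with the 107 that rose and the 102 that fell in colour and the 4 clones given by ID circled. The falls reach -3.06, while the rises of called clones end at 1.42.

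The first component of variation among the 10 arrays, 22.2% of the variance, lay along the radiation groups. Flaxseed-fed irradiated mice scored between 16.8 and 24.6 on it, and flaxseed-fed unirradiated mice between -22.0 and -16.1. The second component, 17.9% of the variance, lay within the groups. Unirradiated mouse 4 scored 41.9 on it, against -20.0 to 9.58 for the other 9 mice.

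Many of the called clones separated all 5 irradiated from all 5 unirradiated mice. Of the 107 rising clones, 79 had no overlap between the groups, and of the 102 falling clones 64 had none. Over all clones 2.24% were without overlap in the rising direction and 1.73% in the falling direction. The clones were called on these same mice, so their separation follows in large part from that choice and is a description. The 38 falling clones with overlap included 29 that fell by 2-fold or more. Spread was larger in unirradiated than in irradiated mice over all clones, with median SDs of 0.292 in irradiated and 0.358 in unirradiated mice on the log2 scale. For the 17 clones with falls of at least 4-fold the order was the opposite, with median SDs of 0.913 in irradiated and 0.619 in unirradiated mice. Over all clones, deviations of 1 array from its group means had an SD of 0.459 in unirradiated mouse 4 and 0.339 to 0.393 in the others. Irradiated mice 1 and 5 had 0.271 and 0.278, and the other irradiated mice 0.350 to 0.369. Without flaxseed these SDs were 0.354 to 0.413 in irradiated and 0.309 to 0.346 in untreated mice.

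The rising clone with the smallest p was gene4514. Its log2 intensities were 7.80, 7.55, 7.70, 7.93 and 7.84 in flaxseed-fed irradiated mice 1 to 5, against 6.34, 6.52, 6.44, 6.83 and 6.29 in flaxseed-fed unirradiated mice 1 to 5. The lowest irradiated mouse lay well above the highest unirradiated one, which was unirradiated mouse 4. The spot is of moderate brightness, at 6.58 to 13.4 times its local background on the irradiated and 2.71 to 6.56 times on the unirradiated arrays. The log2 fold change was 1.28 (SE 0.16, limma adjusted p = 0.000205), or 2.43-fold.

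The second rising clone, gene5688, stood at 9.69, 9.86, 9.97, 9.88 and 9.68 in irradiated mice 1 to 5, against 8.61, 8.67, 8.63, 8.51 and 9.19 in unirradiated mice 1 to 5. Again the groups did not overlap, although unirradiated mouse 5 stood apart from the other 4 and came nearest to the irradiated mice. Its log2 fold change was 1.09 (SE 0.16, limma adjusted p = 0.0018), or 2.13-fold.

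The falling clone with the smallest p was gene8422. Its log2 intensities were 10.18, 9.34, 9.63, 10.11 and 9.98 in irradiated mice 1 to 5, against 11.84, 11.50, 11.54, 11.14 and 11.61 in unirradiated mice 1 to 5. After normalisation all irradiated mice were lower than all unirradiated mice. In raw signal the groups overlapped, with 718 to 1850 units in irradiated and 1543 to 2690 units in unirradiated mice. The local background of the spot was 19.1 to 66.6 units on irradiated and 35.4 to 201 units on unirradiated arrays. The log2 fold change was -1.68 (SE 0.20, limma adjusted p = 0.000202), which is 3.21-fold lower. The 4 spots next to it on the membrane were lower as well, with log2 fold changes between -1.32 and -0.10, and 2 of them were called. After subtracting the median of the surrounding membrane on every array, gene8422 had a log2 fold change of -1.44 (limma adjusted p = 0.000201). That median is taken over an area much wider than these 4 spots, so it cannot remove an effect on a few adjacent spots. Such an effect was not tested.

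The second falling clone, gene7221, is one of the bright spots of the membrane. It stood at 11.41, 10.54, 10.95, 10.95 and 11.94 in irradiated mice 1 to 5, against 14.08, 13.53, 14.13, 12.59 and 13.31 in unirradiated mice 1 to 5. The highest irradiated mouse, mouse 5, was still below the lowest unirradiated mouse, mouse 4. In raw signal this spot read between 1643 and 5269 units in irradiated mice and between 5048 and 15632 units in unirradiated mice, so that the groups overlapped slightly before normalisation. The log2 fold change was -2.37 (SE 0.31, limma adjusted p = 0.000394), or 5.18-fold lower. Its 3 neighbouring spots, at -0.59 to 0.79, were not called.

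**Figure D2:**
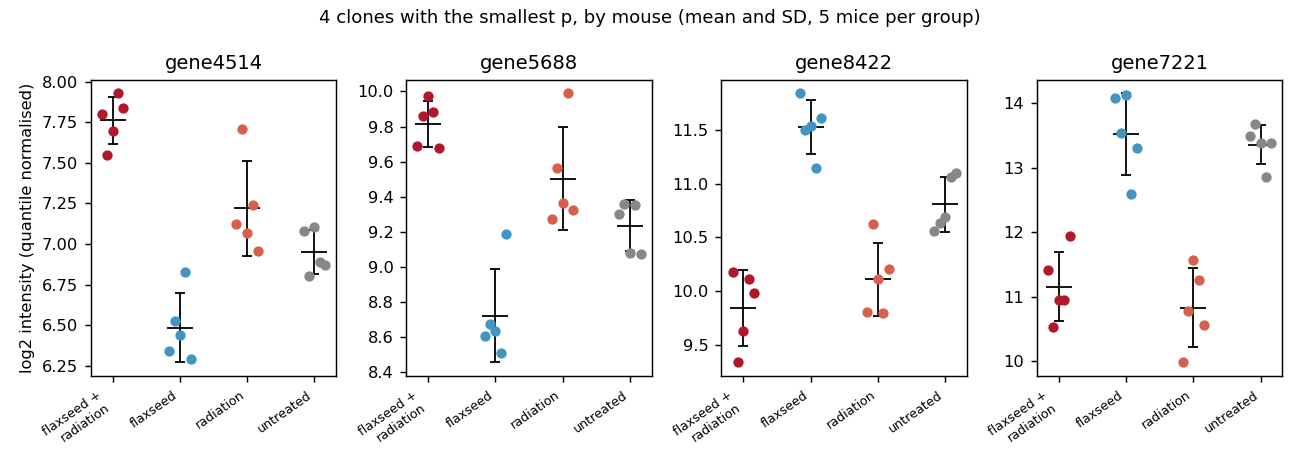
Log2 intensity after quantile normalisation (vertical axis) of gene4514, gene5688, gene8422 and gene7221 in each mouse of the 4 groups, with 5 points per group and black bars for the mean and SD. In each panel the 2 groups on the left, flaxseed with radiation and flaxseed alone, do not overlap.

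These 4 calls held under every alternative in which the clone was fitted, where gene4514 was not among the 4800 brightest clones. The 4 clones were chosen for their small p and the alternatives use the same arrays, so this is a description. Over 28 settings for gene4514 and 29 for each of the others, the highest adjusted p in limma was 0.00528 for gene4514, 0.0103 for gene5688, 0.00572 for gene8422 and 0.00474 for gene7221. The log2 fold changes ranged from 0.94 to 1.54 for gene4514, from 0.95 to 1.38 for gene5688, from -1.84 to -1.32 for gene8422 and from -2.74 to -2.21 for gene7221. The number and the balance of all calls were less stable. With only the 10 arrays of flaxseed-fed mice processed and fitted, 156 clones were called, 76 rising and 80 falling. Of the 209 calls, 128 were among them in the same direction. Leaving out 1 of the 10 mice gave between 82 clones, without unirradiated mouse 2, and 193, without unirradiated mouse 4. It also moved the count by over 1.5 times without unirradiated mouse 3 (139) and without irradiated mice 1, 3, 4 and 5 (110, 125, 116 and 134). Without the alike irradiated mice 1 and 5, 43 clones were called, 40 of them among the 209 in the same direction. With those 2 arrays averaged and counted as 1 mouse, 104 were called, and all 104 were among the 209.

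**Figure D3:**
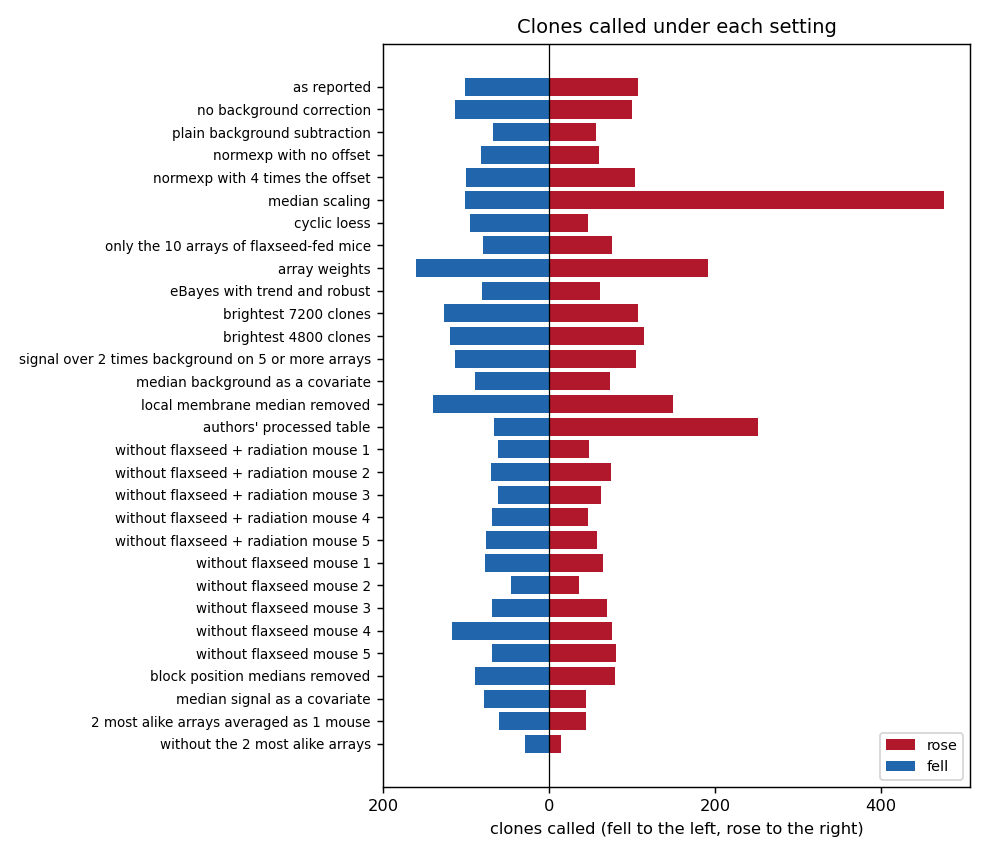
Number of clones called at an adjusted p under 0.05 in limma (horizontal axis), with those that fell to the left of 0 and those that rose to the right, for the analysis as reported and for each alternative (rows). Median scaling (101 fell, 476 rose) and the authors' processed table (66 fell, 252 rose) stand out by their number of rising clones.

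The clones that were called were mainly bright ones. Of the 209 calls, 156 (74.6%) belonged to the 2880 brightest clones by mean log2 intensity, and 5 to the 2880 dimmest. A constant, the offset, was added to the signals before the log2 step and understates the fold changes of dim clones. The small number of dim calls therefore does not show that dim clones responded less. How far the offset lowered that number was not tested. Among the brightest 960 clones 20 rose and 34 fell. Large falls were concentrated there: 30 of the 72 falls by 2-fold or more and 12 of the 17 falls by 4-fold or more belonged to it. The typical log2 intensity was 11.65 for those 17 clones, 9.40 for all falling clones and 8.58 for rising clones, against 7.32 for all clones (medians). Of the called clones, 203 read over 2 times their background on all 10 arrays, 97.1% against 80.9% of all clones, and 0 were at or under that level on every array of a group.

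Among bright clones the count of rises depended on how the arrays were brought to a common scale. The raw signals of flaxseed-fed irradiated mice spanned a wider range than those of flaxseed-fed unirradiated mice. Between the 5th and the 95th percentile of an array lay 6.02 to 6.32 log2 units, against 5.28 to 6.00 units. Without flaxseed the order was not the same, with 5.63 to 6.20 units in irradiated and 6.01 to 6.27 units in untreated mice. Quantile normalisation makes these ranges equal, while median scaling keeps them. Over the brightest 960 clones the median log2 fold change was 0.09 after quantile normalisation, 0.38 after median scaling and -0.06 after cyclic loess. Of those 960, 182 clones rose and 28 fell after median scaling, and 4 rose and 41 fell after cyclic loess. Over all clones 476 rose and 101 fell after median scaling, and 47 rose and 96 fell after cyclic loess. Of the 107 rising clones 106 were also called after median scaling and 47 after cyclic loess, and of the 102 falling clones 70 and 89 were.

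The falling clones also shared a place within the blocks of the membrane. Its spots lie in 384 square blocks, 16 rows of 24, each with 5 spots to a side, so that each of the 25 positions in a block occurs in 384 clones. A position held between 0 and 21 falling clones. The count was 21 in row 1, column 2 and 21 in row 5, column 1, and 9 at the next position, row 5, column 2. Of the clones given by ID, gene7221 lies at row 5, column 1 and gene8422 at row 5, column 2. Both lie at an edge of the membrane, in columns 1 and 2 of its 120 columns of spots. Together the 2 positions with 21 held 42 of the 102 falling clones (41.2%), where they hold 8% of all clones, and 3 of the 107 rising clones. Of the 768 clones there 5.47% fell, against 0.679% elsewhere, in a comparison chosen after the values were seen. As a description, these falls were not spread evenly over the blocks. Columns 16 to 21 of the 24 columns of blocks held 14 of the 21 at row 1, column 2, and 8 of the 21 at row 5, column 1. Row 15 of the 16 rows of blocks held 2 and 7 of them. The positions also held more bright spots, since 15.0% of their clones were among the brightest 960, against 9.57% elsewhere. Among the brightest 960 clones alone, 17 of 115 clones at these positions fell (14.8%), against 17 of 845 elsewhere (2.01%). After subtracting the position's own median on every array the 2 positions held 33.3% of the falling calls, and over all alternatives between 32.9% and 51.6%. That median is taken over all 384 clones at a position, so it cannot remove an effect limited to some of them. The sources used here do not say what was spotted at each position, and the part of the printing in these falls was not tested.

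The falling clones at the 2 positions differed in size and in how they varied between mice. At row 5, column 1, the median log2 fold change of the 21 was -1.85, and 8 of them fell by 4-fold or more. Averaged over them, irradiated mice stood between 9.23 and 10.54 and unirradiated mice between 10.90 and 11.76 log2 units. At row 1, column 2, the median was -1.05, and 0 fell by 4-fold. Averages there were between 8.46 and 8.70 in irradiated and between 9.41 and 9.95 in unirradiated mice. Over the 10 mice, deviations from the group means had a median pairwise correlation of 0.31 among the falling clones at row 5, column 1, and 0.07 among those at row 1, column 2. As a description, the same median was 0.52 over the 136 pairs of the 17 clones with falls of at least 4-fold and -0.0017 over the pairs of all clones, which share arrays and normalisation. The pairs of the 17 ranged from -0.77 to 0.97.

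**Figure D4:**
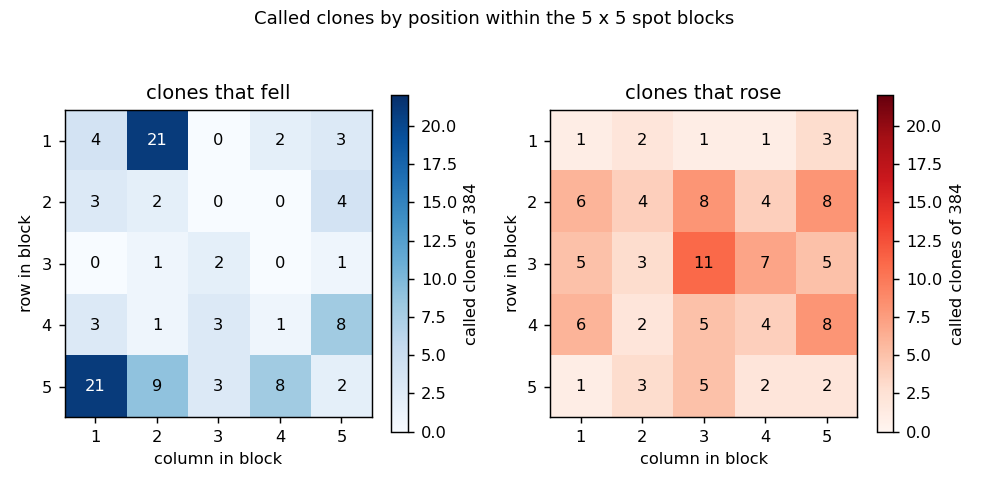
Number of clones that fell (left) and rose (right) in flaxseed-fed irradiated against flaxseed-fed unirradiated mice at each of the 25 positions of the square blocks, by row (vertical axis) and column (horizontal axis), out of 384 clones per position. Falling clones reach 21 at row 1, column 2 and at row 5, column 1, while rising clones reach 11 at row 3, column 3.

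Rising clones were spread differently over the whole membrane. The upper left of 4 equal areas held 53 of the 107 rising and 11 of the 102 falling clones, and the lower right area held 15 rising and 37 falling ones, of 2400 clones each. The median log2 fold change of all clones was 0.10 in the upper left and -0.05 in the lower right area. In mice without flaxseed the upper left area held 17 of the 25 rising and the lower right area 27 of the 43 falling clones. Subtracting the median of the surrounding membrane gave 289 calls, 149 rising and 140 falling, and 186 of the 209 calls were among them in the same direction.

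The response was set against that of mice without flaxseed, which are other animals but share the normalisation and the estimate of spread. In irradiated mice without flaxseed 68 clones were called against untreated mice (0.708%), 25 rising (0.26%) and 43 falling (0.448%). Of the 102 clones that fell in flaxseed-fed mice, 98 (96.1%) were also lower with radiation without flaxseed, where 61.7% of all clones lower in flaxseed-fed mice were. Of the 107 that rose, 89 (83.2%) were also higher, where 64.7% of all clones higher in flaxseed-fed mice were. The 5 irradiated and 5 untreated mice did not overlap for 26 of the falling clones (25.5%, against 1.35% of all clones) and for 10 of the rising clones (9.35%, against 1.11%). Called in both diets were 19 falling clones, 18.6% of those with flaxseed and 44.2% of those without, and 6 rising clones, 5.61% of those with flaxseed and 24% of those without. No clone was called in opposite directions. Since the clones were chosen on the flaxseed-fed mice, their shares in the other mice are a description.

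All 17 clones with falls of at least 4-fold in flaxseed-fed mice were lower in irradiated than in untreated mice, by log2 fold changes between -3.42 and -0.58 with a median of -1.86, and 9 of the 17 were called there. The 21 falling clones at row 1, column 2 of the blocks were all lower too, with a median of -0.52, and 2 of them were called. Of the 21 at row 5, column 1, 20 were lower, with a median of -1.27, and 8 were called. Averaged over the 102 falling clones, flaxseed-fed mice stood between 8.76 and 9.06 with radiation and between 9.88 and 10.47 without it, and mice without flaxseed stood between 8.76 and 9.06 with radiation and between 9.55 and 9.92 without it. Averaged over the 107 rising clones, flaxseed-fed mice stood between 9.18 and 9.30 with radiation and between 8.19 and 8.41 without it, and mice without flaxseed between 8.91 and 9.30 with radiation and between 8.65 and 8.90 without it. The separation in flaxseed-fed mice follows from the choice of the clones. Without flaxseed the irradiated and untreated mice did not overlap over the falling clones, and over the rising clones the lowest irradiated mouse (8.91) and the highest untreated mouse (8.90) nearly met.

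**Figure D5:**
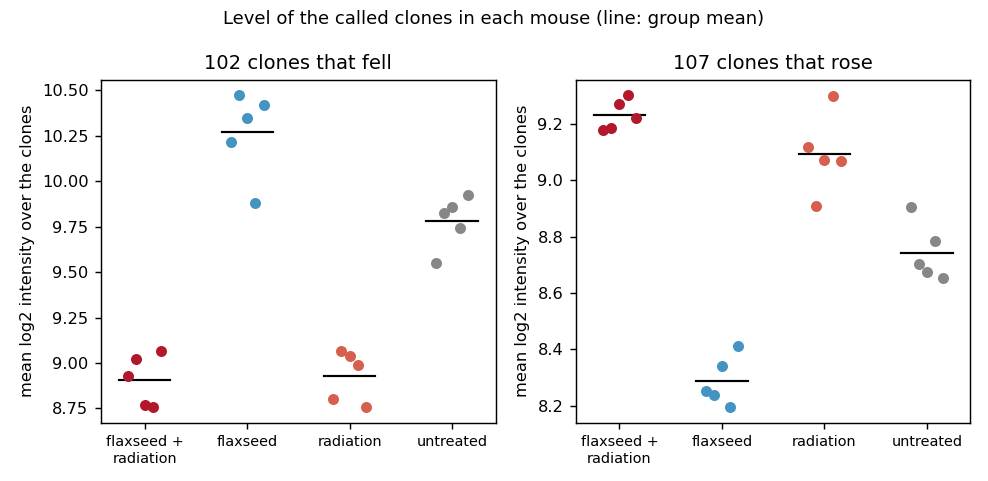
Mean log2 intensity (vertical axis) over the 102 clones that fell (left) and the 107 that rose (right) in each mouse of the 4 groups, with lines for the group means. The clones were chosen on the 2 groups at the left of each panel. Over the falling clones, irradiated mice without flaxseed lie between 8.76 and 9.06 and untreated mice between 9.55 and 9.92.

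Of the 4 clones given by ID, gene7221 was called in both diets. Without flaxseed it stood at 10.83 ± 0.62 in irradiated and at 13.36 ± 0.30 in untreated mice (SD, n = 5), a log2 fold change of -2.53 (SE 0.31, limma adjusted p = 0.00041), and the interaction was 0.16 with a 95% interval half-width of 0.91. The clone gene8422 stood at 10.11 ± 0.34 in irradiated and 10.81 ± 0.25 in untreated mice, a log2 fold change of -0.70 that did not pass (SE 0.20, limma adjusted p = 0.0966). For gene4514 the levels were 7.22 ± 0.29 in irradiated and 6.95 ± 0.13 in untreated mice, a log2 fold change of 0.27 (limma adjusted p = 0.471), and for gene5688 they were 9.50 ± 0.29 in irradiated and 9.23 ± 0.14 in untreated mice, a log2 fold change of 0.27 (limma adjusted p = 0.492). The interactions of gene8422, gene4514 and gene5688 were -0.98, 1.01 and 0.82, and none passed after adjustment over all clones (limma adjusted p = 0.445, 0.301 and 0.445). Over all 9600 clones 0 interactions were called (0%), where the smallest adjusted p in limma was 0.0992 and 578 clones had an unadjusted p under 0.05. The 95% interval of an interaction had a median half-width of 0.66 on the log2 scale, and that of the comparison within flaxseed-fed mice one of 0.46. These intervals do not show that the diets gave the same response.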

How the data were processed

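Per the file headers, the authors deposited 2 intensity columns per array, the median signal of a spot and its median background, without subtraction. The sources used here name no scanner or image software. RNA was labelled with 33P by reverse transcription, per the labels' protocols. Signals were background corrected with normexp in limma 3.58.1 (R 4.3.3) with an offset of 16.3, which is 0.1 times the median signal, converted to log2 and normalised by quantiles over all 20 arrays. No clone was filtered out. A linear model (lmFit, eBayes) had a mean for every group and 16 residual and 6.08 prior degrees of freedom. Tests were two-sided with Benjamini-Hochberg adjustment over 9600 clones and a threshold of 0.05. Fold changes include the offset, which understates those of dim clones. Precision is limited by the number of arrays. The authors' deposited table of processed intensity, 98.1% of whose values equalled net signal over the array's median within a relative tolerance of 0.001 and the rest a constant of 0.002, was an alternative only. Its scale is linear and it is not centred by clone.

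Each array is 1 mouse, numbered 1 to 5 in accession order within its group; whether animals shared a cage, hybridisation or membrane batch is not given, so batches could not be examined. The clones given by ID are the 2 with the smallest p among called clones in each direction; with no gene names, the gene lists and cell type markers listed for use with a clone annotation were not used. The comparison, the rule and the lists were chosen with earlier results of these data known.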

Additional observations from a re-analysis of the deposited data

Results flagged for a closer look

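Each array measure and each of the 4 clones given by ID was searched for a mouse far from its group, in 22 groups of 5. In 2 groups 1 mouse lay apart by over 0.71 of the group's range, where chance gives 1.1 such groups. Flaxseed-fed irradiated mouse 4 scored 24.6 on the first component of variation among the 10 arrays, against 16.8 to 17.2 in the other 4. Without it 116 clones were called, 47 rising and 69 falling. Flaxseed-fed unirradiated mouse 5 stood at 9.19 log2 intensity for gene5688, against 8.51 to 8.67 in the other 4.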

How the results depend on the processing

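The count of 209 calls in flaxseed-fed mice was 124 with plain background subtraction, 577 with median scaling, 352 with array weights and 318 in the authors' processed table. Chosen after seeing the data, the median signal as a covariate gave 123, averaging the 2 most alike arrays 104 and leaving both out 43. Leaving out single flaxseed-fed mice gave 82 to 193. The share of calls that rose, 51.2%, was 42.3% with no offset, 82.5% with median scaling, 32.9% with cyclic loess, 43.0% with trended robust eBayes, 79.2% in the authors' table, 35.8% with the signal covariate, 42.3% with the 2 arrays averaged, 32.6% without them, and 39.4% to 53.7% with single mice left out. The 68 calls without flaxseed became 28 with plain subtraction, 43 among the 4800 brightest clones, 45 with the background covariate, 20 in the authors' table, 39 with block position medians removed, 42 with the 2 arrays averaged, 33 without them and 40 to 83 with single flaxseed-fed mice left out. For the interaction 2 clones passed with the local membrane median removed, and 0 to 1 with single flaxseed-fed mice left out, while mice without flaxseed were not left out in turn. The difference in the percent of spots over 2 times background, 0.579, turned to -0.294 without unirradiated mouse 5 (range -0.294 to 1.33). The cause of these shifts was not tested, except that fewer mice or clones enter some fits. No paired analysis was possible because the labels number the mice through the groups and pair none.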
